A study of Mus musculus with 4 samples.

Results

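The suppressors of cytokine signaling are the 8 genes Cish and Socs1 to Socs7, taken here by name from the 32285 genes measured in lymph node cells of mice given extracellular vesicles (EVs) of induced pluripotent stem cells (iPSCs). Within B cells, within T cells with Cd4 or with Cd8a and within Foxp3+ regulatory T cells (Tregs), they were compared between 2 Control and 2 EV libraries. It was then asked whether Socs1 goes with Ifit3, an interferon-induced gene, or with Cish, a target of STAT5, in the same cells. All mice were wildtype C57BL/6. The EV group received a subcutaneous total of 100 μg of iPSC EVs, the Control group received PBS, and draining nodes were taken after 5 days. The sample labels differ from this description and record "No treatment" for Control and 24 h for both groups. The methods describe 2 biological replicates per group, and neither source says whether a library holds 1 animal or a pool. p-values therefore apply to these libraries only. Those from edgeR rest on a spread estimated in part over all genes tested, and not on the libraries of that gene alone.

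SOCS proteins are negative feedback regulators of cytokine receptors. A cytokine activates Janus kinases (JAKs) on its receptor, these activate STAT transcription factors, and STATs induce SOCS genes, whose SH2 domain binds the receptor or the kinase and whose SOCS box recruits a ubiquitin ligase. Cish and Socs2 are known targets of STAT5 downstream of interleukin-2 and related cytokines, Socs3 of STAT3 downstream of gp130 cytokines, and Socs1 is induced by interferons as well as by STAT5-activating cytokines. Socs1 restrains interferon and interleukin-2 signaling in T cells, and Cish dampens T cell receptor and interleukin-2 signaling. Socs4 to Socs7 are less closely tied to JAKs and are not known as strong early targets of cytokines.

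The question of Socs1 against Ifit3 and Cish concerns a STAT site and an interferon response element, so the promoter letters of these genes are given first. The table of RefSeq promoters of build GRCm38.p6 runs from 250 bases before to 50 bases after the gene start it uses. It held promoters for Cish, Socs1, Socs3 and Socs4 and for Ifit3, and none for Socs2, Socs5, Socs6 and Socs7. Both strands were searched for TTCNNNGAA, the letters of a STAT site, and for GAAANNGAA, the core of an interferon-stimulated response element. Of 32851 promoters in the table, 8.3% held the first and 8.56% the second. Capitals mark the matches.
Cish, chr9:107296654-107296683, plus strand: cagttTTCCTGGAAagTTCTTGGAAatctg
Socs1, chr16:10785557-10785656, minus strand: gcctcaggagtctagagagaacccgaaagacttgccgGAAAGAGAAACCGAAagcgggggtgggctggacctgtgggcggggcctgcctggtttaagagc
Socs3, chr11:117969467-117969566, minus strand: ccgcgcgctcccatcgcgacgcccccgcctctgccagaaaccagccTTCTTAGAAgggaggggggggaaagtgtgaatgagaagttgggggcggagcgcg
Ifit3, chr19:34583349-34583448, plus strand: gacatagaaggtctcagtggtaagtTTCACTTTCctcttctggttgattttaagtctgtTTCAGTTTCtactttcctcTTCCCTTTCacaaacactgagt

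Cish held 2 matches of the STAT letters, starting 0 and 11 bases after the gene start, in annotated 5′ UTR exon sequence that the gene Gm17040 overlaps. Socs3 held 1, which starts 154 bases before the start used in the table and lies in the annotated Socs3 gene outside its exons. That start is inside the gene, so sequence before the annotated Socs3 gene was not searched. Socs1 held no match of the STAT letters and 2 overlapping matches of the interferon letters, 83 and 77 bases before the start, in sequence upstream of the annotated gene. Ifit3 held 3 matches of the interferon letters on the opposite strand, 155, 121 and 102 bases before the start, so its capitals show the reverse complement. Socs4 held neither. In these windows Socs1 therefore shared its letters with Ifit3 and not with Cish, which is a description of letters and says nothing of binding.

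**Figure D1:**
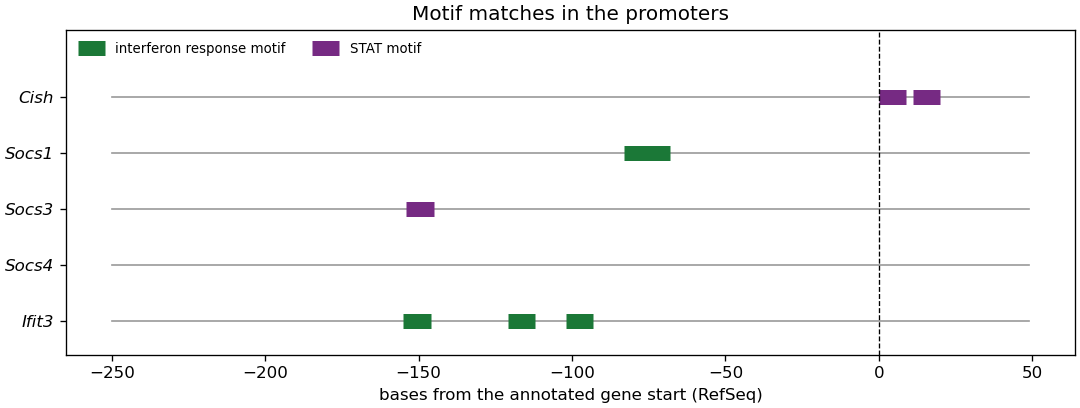
Matches of the 2 motifs in the sequences searched for Cish, Socs1, Socs3, Socs4 and Ifit3. Distance is in bases from the start used (dashed line, negative before it). For Socs3 this start lies inside the annotated gene, so negative distances are not upstream of that gene. Purple blocks are STAT letters and green blocks interferon letters: Cish and Socs3 hold STAT letters alone, Socs1 and Ifit3 interferon letters alone, and Socs4 none.

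The 4 libraries held 50749656 to 70418672 UMIs (unique molecular identifiers, each a counted mRNA molecule), and 32725 of 34323 barcodes passed the filters on cells. Pairs of libraries shared 11 to 24 cell barcodes. The gates left 2503 to 4866 B cells, 923 to 1624 CD4+ T cells, 1003 to 1861 CD8+ T cells and 117 to 213 Tregs per library, and 5.13% to 6.87% of the CD4+ gate also carried Foxp3. In every library B cell markers were highest in the B cell gate, T cell markers in the T cell gates and Treg markers in the Treg gate. These lists include Cd79a, Cd3e and Foxp3, which define the gates, so this order was in part given in advance. The Treg gate, which did not exclude Cd79a, also held B cell markers at a summed 92.7 to 394 CPM (UMIs of a gene per 1000000 UMIs of the gate in that library). Abundant nuclear or rRNA-like transcripts were, on balance, lower in the EV libraries of each gate, with a median log2 difference between −1.64 and −1.50, and none of them was called. EV replicate 2 was the lowest by far for 3 of these 4 transcripts (Gm42418 in B cells at 837 CPM, against 5574 CPM in EV replicate 1), whereas Malat1 in B cells was at 21050 CPM there and at 19870 CPM in Control replicate 2. Leaving Gm42418, AY036118, Cmss1 and other genes out of the library sizes was among the alternatives. The part of the nuclear or rRNA-like transcripts in the results below was not otherwise tested.

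Cish, the gene of the CIS protein, was highest in Tregs, followed by CD4+ T cells. In Tregs it stood at 65.1 and 69.7 CPM in the Control libraries and at 87.9 and 70.3 CPM in the EV libraries (here and below replicate 1, then replicate 2). In CD4+ T cells the levels were 9.46 and 13.5 CPM against 13.6 and 13.1 CPM. CD8+ T cells held 1.83 and 2.27 CPM against 4.81 and 3.62 CPM. B cells held 0.263 to 0.522 CPM, and 0.203% of Control and 0.192% of EV B cells had a Cish UMI, a share at which free RNA cannot be told apart from expression. The order of Tregs, CD4+ T cells, CD8+ T cells and B cells held in each library.

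Socs2, a regulator of growth hormone and STAT5 signaling, followed the same order for Tregs and CD4+ T cells but spread widely between libraries. Control Tregs held 83.7 and 35.6 CPM, and EV Tregs 47.8 and 66.7 CPM. CD4+ T cells held 9.57 and 5.07 CPM against 4.12 and 7.06 CPM, and B cells 4.31 and 1.57 CPM against 1.76 and 3.27 CPM. In all 3 gates the groups overlapped. Outside the lymphocytes, a small class of migratory dendritic cell-like cells (19 to 40 cells per library with Fscn1 and Ccl22) held Socs2 at 915, 463, 602 and 515 CPM, the highest Socs2 level of the 8 classes in every library, where 57.5% to 87.0% of the cells had a Socs2 UMI.

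Among the 4 gates, Socs1 was lowest in Control B cells and highest in EV Tregs. Control libraries held 5.99 and 7.24 CPM in B cells, 30.1 and 30.2 CPM in CD4+ T cells, 31.4 and 33.1 CPM in CD8+ T cells and 88.8 and 56.3 CPM in Tregs. In the EV libraries the same gates held 18.6 and 17.0 CPM, 81.2 and 46.1 CPM, 76.4 and 52.0 CPM, and 166 and 111 CPM. The groups did not overlap in any of the 4 gates. Such a split says little with 2 against 2 libraries, here and below. In B cells it was also found for Socs3, Socs4, Socs5 and Socs6, at ratios of EV to Control means of 17.1, 0.895, 0.968 and 0.902. The share of all genes without overlap is not given. CD4+ and CD8+ T cells were neighbours in this order, with a log2 difference of 0.13 ± 0.05 (SE, CD8+ over CD4+) that missed the threshold (edgeR adjusted p = 0.068).

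**Figure D2:**
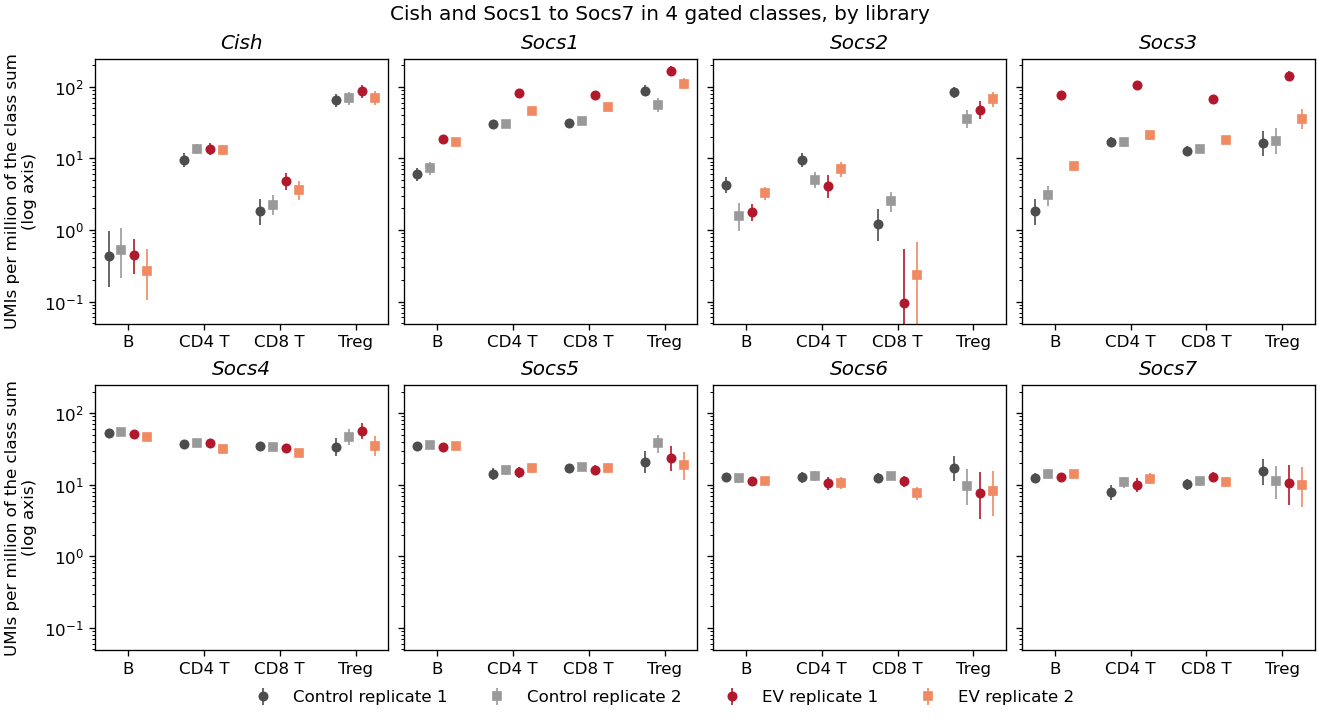
Level of each of the 8 genes in the 4 gates (CPM, log axis), 1 point per library, with 95% exact Poisson intervals. Socs1 is higher in both EV libraries in each gate, Socs3 is highest in EV replicate 1, and Socs4 to Socs7 lie close together across libraries in the B, CD4+ and CD8+ gates but less so in Tregs.

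Differences between cell types were tested within libraries, with library as a block, and a gene was called at an adjusted p under 0.05. Between CD4+ T cells and B cells 7 of the 8 genes were called, where 66.8% of 13546 genes tested were. Cish was higher in CD4+ T cells by 4.99 ± 0.20 (log2 difference ± SE, n = 4 libraries; edgeR adjusted p = 2.2e-08), Socs1 by 1.97 ± 0.13, Socs3 by 1.31 ± 0.31 and Socs2 by 1.29 ± 0.16. Socs5, Socs4 and Socs7 were lower, at −1.11 ± 0.07, −0.46 ± 0.05 and −0.34 ± 0.09, and Socs6 was at 0.02 ± 0.08 (edgeR adjusted p = 0.81). With cells thinned to 1000 UMIs 5 were called, and Socs2 (0.27, adjusted p = 0.65) and Socs7 (−0.33, 0.25) were not.

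CD8+ T cells stood below the whole CD4+ gate for the STAT5 targets Cish and Socs2, with 4 of 8 genes called against 39.1% of 12721 genes tested. Cish was lower by −1.98 ± 0.16 (edgeR adjusted p = 6.4e-07), Socs2 by −2.49 ± 0.42 and Socs3 by −0.40 ± 0.08. Socs5 was higher by 0.20 ± 0.08 (edgeR adjusted p = 0.048), a call that was lost without Control replicate 1 (0.15), Control replicate 2 (0.21), EV replicate 1 (0.21) or EV replicate 2 (0.24). The CD4+ gate includes the cells with Foxp3. With these left out, mean Control levels in CD4+ T cells were 1.861 CPM for Socs2 and 6.88 CPM for Cish. Control CD8+ T cells held 1.865 and 2.05 CPM. The EV means were 1.75 and 8.70 CPM in these CD4+ T cells, and 0.164 and 4.2 CPM in CD8+ T cells. CD8+ T cells were not tested against CD4+ T cells without Foxp3. Against CD4+ T cells without a Foxp3 UMI, Tregs were higher in 4 of the 8 genes, where 24.0% of 11624 genes were called. Socs2 differed by 4.81 ± 0.26, Cish by 3.11 ± 0.14, Socs1 by 1.21 ± 0.12 and Socs5 by 0.67 ± 0.19 (edgeR adjusted p = 0.016), and Socs5 lost its call without Control replicate 2 (0.38, adjusted p = 0.22).

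EV treatment was then compared with Control in each gate. Socs1 rose in B cells by 1.48 ± 0.14 on the log2 scale (SE, 2 against 2 libraries; edgeR adjusted p = 0.0035), in CD8+ T cells by 1.01 ± 0.15 (adjusted p = 0.0065) and in CD4+ T cells by 1.09 ± 0.21 (adjusted p = 0.040). It was the only member called in B cells, where 2.55% of 13270 genes were, and in CD4+ T cells, where 1.09% of 11933 were. In CD8+ T cells 2 of 8 members were called, Socs1 and Socs2, against 2.20% of 12284 genes. The ratio of mean levels was 2.69 in B cells, and in T cells it was 2.12 (CD4+) and 1.99 (CD8+). The call in CD4+ T cells was lost with DESeq2 (1.11, adjusted p = 0.28) and with cells thinned to 1000 UMIs (1.14, adjusted p = 0.063). EV replicate 1 stood above EV replicate 2 in both T cell gates, and without it Socs1 differed by 1.40 in B cells, 0.62 in CD4+ T cells and 0.69 in CD8+ T cells.

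In Tregs edgeR called 0 of the 8 members, with 2 at an unadjusted p under 0.05, where 0.124% of 8876 genes were called. DESeq2 also had 2 at an unadjusted p under 0.05, but its own filter on low counts left all 8 without an adjusted p. Socs1 was at 0.90 ± 0.23 (edgeR adjusted p = 0.20), and without EV replicate 1 at 0.56. The test of the difference between gates did not call Socs1 for any pair: the EV effect in B cells less that in CD4+ T cells was 0.39 ± 0.23 (edgeR adjusted p = 0.59), that in CD8+ less CD4+ T cells −0.06 ± 0.11 (adjusted p = 0.94), and that in Tregs less CD4+ T cells without Foxp3 −0.23 ± 0.24 (adjusted p = 0.99). Without EV replicate 1 the first of these was 0.77 and called (adjusted p = 0.0012).

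The share of cells with a Socs1 UMI moved the same way. It was 2.67% ± 0.68 (SD, n = 2) in Control and 8.11% ± 0.94 in EV B cells, 15.6% ± 1.2 and 29.1% ± 7.2 in CD4+ T cells, 21.2% ± 3.2 and 36.7% ± 4.3 in CD8+ T cells, and 33.3% ± 6.7 and 48.7% ± 9.7 in Tregs. An exact two-sided permutation test of 2 against 2 libraries cannot go below p = 0.33, which each of these shares gave. With every cell thinned to 1000 UMIs the shares were 0.456% and 1.56% in B cells, 2.78% and 6.08% in CD4+ T cells, 3.24% and 6.52% in CD8+ T cells, and 7.48% and 10.8% in Tregs, again without overlap.

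Socs3 was high in EV replicate 1 in all 4 gates. Control B cells held 1.83 and 3.06 CPM, and EV B cells 76.0 and 7.72 CPM. CD4+ T cells held 16.9 and 16.9 CPM against 107 and 21.0 CPM, and CD8+ T cells 12.8 and 13.6 CPM against 67.2 and 17.9 CPM. Tregs held 16.6 and 17.8 CPM against 143 and 36.1 CPM. These levels thus did not overlap between the groups in any gate, and EV replicate 1 stood far above EV replicate 2. With cells thinned to 1000 UMIs the share of cells with a Socs3 UMI did overlap in Tregs. It was 1.81% ± 0.09 (SD, n = 2) in Control and 8.87% ± 10.43 in EV Tregs. In the B cell, CD4+ and CD8+ gates the thinned shares did not overlap. The log2 differences of 4.16 ± 1.05 in B cells, 1.92 ± 0.55 in CD4+ T cells, 1.68 ± 0.42 in CD8+ T cells and 2.35 ± 0.47 in Tregs were not called (edgeR adjusted p = 0.080, 0.12, 0.060 and 0.083). Without EV replicate 1 they were 1.70, 0.32, 0.43 and 1.03. With single libraries left out they reached 5.01 in B cells, 2.70 in CD4+ T cells, 2.38 in CD8+ T cells and 3.055 in Tregs. Among the alternatives that gave an adjusted p, these fits included, Socs3 stayed uncalled in 9 of 14 in B cells and 10 of 15 in CD4+ T cells. In CD8+ T cells it stayed uncalled in 5 of 14, and in Tregs in 9 of 12. In the rest it was called, always as higher in EV. A group left with 1 library has no spread of its own, so calls in such fits carry little weight.

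In 2 of 4 small classes the same library stood apart, with Socs3 at 202 CPM in macrophage-like cells against 22.3 to 24.7 CPM in the other libraries and at 119 CPM in plasmacytoid dendritic cell-like cells against 6.33 to 28.3 CPM. It did not in NK-like cells (22.4 CPM, below the 27.3 CPM of EV replicate 2) or in migratory dendritic cell-like cells, where each EV library held 1 Socs3 UMI. Over the 4 libraries, macrophage-like cells held 28 Socs3 UMIs, plasmacytoid dendritic cell-like cells 51 and NK-like cells 12, so these orders rest on few counts. The B cell gate of EV replicate 1 also had the highest summed level of 5 myeloid markers (94.5 CPM, against 42.3, 47.2 and 65.9 CPM in the others), all 5 of them detected. This level was highest in EV replicate 1 in the T cell gates too. It was 30.8 against 21.6 to 28.4 CPM in CD4+ and 14.0 against 5.65 to 12.1 CPM in CD8+ T cells. In Tregs it was 56.4 against 9.01 to 18.5 CPM. The summed level of the 9 early response genes of dissociation was also highest in EV replicate 1 and lowest in EV replicate 2 in all 4 gates, at 587 against 386 CPM in B cells, 511 against 343 CPM in CD4+ and 372 against 249.7 CPM in CD8+ T cells, and 706 against 397 CPM in Tregs. Socs1 showed the same order of the EV libraries. The part of myeloid cells and of dissociation in Socs3 and Socs1 was not tested. Mean Socs3 levels went from 2.44 CPM in Control to 41.9 CPM in EV B cells, and from 16.9 to 63.9 CPM in CD4+ T cells. The rise in CPM was thus not larger in B cells, where the Control level was low. On the log2 scale the EV effect on Socs3 was larger in B cells than in CD4+ T cells by 2.03 ± 0.33 (edgeR adjusted p = 0.0048), with 1 of 8 members called against 1.79% of 13546 genes. It was 1.37 without EV replicate 1 (adjusted p = 2.9e-05) and 1.72 and not called without Control replicate 1 (adjusted p = 0.083), and DESeq2 gave it no adjusted p. Between CD8+ and CD4+ T cells (0.377% of 12721 genes called) and between Tregs and CD4+ T cells without Foxp3 (0.224% of 11624) edgeR called 0 members, with 2 and 0 at an unadjusted p under 0.05. DESeq2 called 0 in the first of these (1 at an unadjusted p under 0.05) and 0 in the second, where 2 members had no adjusted p. Without Control replicate 1 the CD8+ comparison gave 1 call by edgeR, Socs2 (−3.97).

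Cish did not pass the test in any gate. It was at 1.03 ± 0.29 in CD8+ T cells (edgeR adjusted p = 0.088), where the groups did not overlap, at 0.21 ± 0.19 in CD4+ T cells (adjusted p = 0.60) and at 0.21 ± 0.20 in Tregs (adjusted p = 0.88). In CD4+ T cells the groups overlapped. In B cells, with 34 UMIs in all, Cish did not pass the filter on low counts. The share of cells with a Cish UMI was 5.42% and 7.56% (Control and EV means) in CD4+ T cells, but 1.25% and 1.17% after thinning, so that the direction turned. In CD8+ T cells the share was 1.48% and 3.80%, and 0.218% and 0.323% after thinning, where the groups overlapped. Of 12 alternatives that gave an adjusted p, Cish stayed uncalled in CD8+ T cells in 9. In the rest it was called, always as higher in EV, as in the fit without EV replicate 2 (1.25).

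Socs2 was lower in EV CD8+ T cells. The gate held 16 and 42 Socs2 UMIs in the Control libraries (1.22 and 2.51 CPM) and 1 and 3 UMIs in the EV libraries (0.0961 and 0.231 CPM), in 9 and 9 cells against 1 and 3 cells. The summed EV level was 0.0881 of that in Control (95% exact interval 0.0232 to 0.238, which like the other intervals covers counting error only), and the fitted log2 difference was −3.40 ± 0.64 (edgeR adjusted p = 0.021). The call rests on few cells. It was lost without Control replicate 2 (−2.75, adjusted p = 0.092) and with a changed cell filter, that is no upper limits on genes and UMIs and a mitochondrial limit of 5% (−1.52, adjusted p = 0.25), DESeq2 gave it no adjusted p, and with gates at 2 UMIs Socs2 did not pass the filter. In B cells, CD4+ T cells and Tregs it was at −0.19 ± 0.45, −0.33 ± 0.33 and −0.10 ± 0.31, and none was called.

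For Socs4, Socs5, Socs6 and Socs7 no difference was called. Their log2 differences spanned −0.11 to 0.05 in B cells, −0.27 to 0.24 in CD4+ T cells, −0.46 to 0.16 in CD8+ T cells and −0.80 to 0.16 in Tregs. Socs4 in B cells, for instance, was at 53.4 and 55.4 CPM without and 50.4 and 46.9 CPM with EVs. Socs5 held 35.0, 35.4, 33.2 and 35.0 CPM there. Socs6 was lower in both EV libraries in all 4 gates. It was at −0.80 ± 0.46 in Tregs (edgeR adjusted p = 0.74), with 17.2 and 9.64 CPM against 7.64 and 8.11 CPM from 8 to 27 UMIs per library, and at −0.46 ± 0.18 in CD8+ T cells (adjusted p = 0.21). Socs5 was at −0.47 ± 0.34 in Tregs (adjusted p = 0.82). Without EV replicate 1, a fit with no replication in the EV group, Socs4 was at −0.32 and Socs6 at −0.76 in CD8+ T cells.

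**Figure D3:**
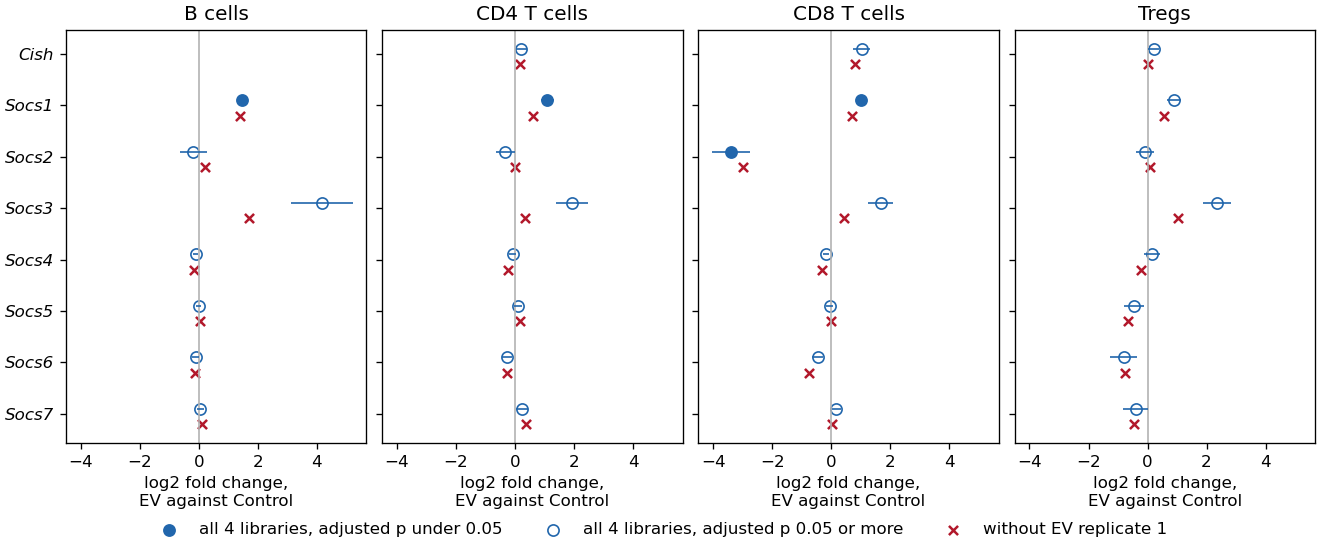
Log2 difference of EV against Control for the 8 members in each gate (circles, edgeR estimate ± SE, filled for an adjusted p under 0.05; Cish was not tested in B cells) and the same without EV replicate 1 (crosses). Socs1 lies between 0.90 and 1.48 in the 4 gates, and Socs3 moves furthest toward 0 when that library is left out.

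The genes around the inhibitors were counted from lists. In EV against Control, 14 of 17 interferon-induced genes tested rose in B cells (median log2 difference 1.24, against −0.0016 over all genes), 4 of 17 in CD4+ T cells (0.64, against 0.00072) and 9 of 17 in CD8+ T cells (0.82, against 0.00033), and none fell. Of 13 tested in Tregs 0 were called by edgeR, with 5 at an unadjusted p under 0.05. Rsad2, an antiviral enzyme, rose by 2.05 in B cells, and Isg15, a ubiquitin-like modifier, by 1.59 there, by 1.24 in CD4+ T cells and by 1.09 in CD8+ T cells. Ifit3, a cytosolic antiviral protein, rose by 1.67, 1.24 and 1.27 in these gates, and its near-identical neighbour Ifit3b may share reads with it. In Tregs it was at 1.23 ± 0.48 (edgeR adjusted p = 0.55). Socs1 and Ifit3 were thus called in the same 3 gates. In these 2.55%, 1.09% and 2.20% of all genes were called (B, CD4+ and CD8+), against 0.124% in Tregs. Thinned to 1000 UMIs, the share of cells with an Ifit3 UMI overlapped between the groups in CD8+ T cells and Tregs. In B cells and CD4+ T cells it did not. Ifit3 lost its call in CD4+ T cells with thinned cells (1.06, adjusted p = 0.37) and gates at 2 UMIs (0.89, 0.11), and in CD8+ T cells with thinned cells (1.02, 0.057), no upper limits and a mitochondrial limit of 5% (1.24, 0.051) and DESeq2 (1.27, 0.17). Without EV replicate 2 it was 0.77 in CD8+ T cells.

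Among the JAK and STAT genes, Stat3 rose by 0.84 and Stat4 by 0.94 in B cells, Stat4 by 0.67 in CD4+ T cells, and Stat3 by 0.45 and Stat4 by 0.56 in CD8+ T cells. In Tregs edgeR called 0 of the 11 tested, with 3 at an unadjusted p under 0.05. Of 16 cytokine receptor genes, 1 rose in B cells (Ifngr2, by 0.45) and 3 in CD8+ T cells (Ifngr1 by 0.72, Il2rb by 0.59 and Il21r by 0.37). The STAT5-induced genes, the list that would go with Cish, gave 0 calls among 11 tested in B cells, 0 of 12 in CD4+ T cells, 1 of 12 in CD8+ T cells (Bcl2, a survival factor, by 0.47) and 0 of 12 in Tregs, with 4, 2, 6 and 3 at an unadjusted p under 0.05 (edgeR). Among 10 or 11 other negative regulators of cytokine signaling tested per gate only Usp18, the protease that removes Isg15 and blocks interferon receptors, was called, by 1.24 in B cells and 0.82 in CD8+ T cells. Usp18 is counted among the interferon-induced genes too. The 4 ligase partners of the SOCS box (Elob, Eloc, Cul5 and Rnf7) lay between −0.10 and 0.20 in all gates, with 0 calls and 0 at an unadjusted p under 0.05 (edgeR). Of 8 or 9 early response genes of dissociation tested per gate, Egr1 alone was called, and fell by 0.78 in B cells and by 0.63 in CD8+ T cells.

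The cells of each gate were next split into those with an Ifit3 UMI alone, those with a Cish UMI alone and those with neither, which were summed per library and compared with library as a block. A fit was made where each stratum held at least 20 cells in every library. Cells with both were few (2 in the B cell gate, 13 in CD4+, 16 in CD8+ and 8 in Tregs) and were left out. Since Ifit3 and Cish defined the strata, their own levels are no result.

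In B cells Socs1 was higher in cells with an Ifit3 UMI. The Ifit3-only cells (39, 49, 232 and 206 per library) held Socs1 at 20.5 and 18.5 CPM without and 45.6 and 32.9 CPM with EVs. Cells with neither held 5.21 and 6.80 CPM against 16.74 and 15.96 CPM. The Ifit3-only level was the higher in each of the 4 libraries, by 1.37 ± 0.20 on the log2 scale (edgeR adjusted p = 3.1e-10). With single libraries left out the difference ran from 1.27 to 1.53. The Ifit3-only levels rest on 131 Socs1 UMIs in all, most of them in the EV libraries, so the Control levels rest on few counts. Socs1 was the only one of 7 members tested that was called, against 4.04% of 11977 genes. Socs3 was at −0.38 ± 0.20 and not called. Cish-only B cells numbered 4, 5, 13 and 5, too few for a fit. They held Socs1 at 190, 96.3, 86.4 and 115 CPM, and their summed Treg and myeloid markers reached 949 and 3395 CPM, against at most 11.4 and 94.9 CPM in B cells with neither. Whether these barcodes are B cells was not tested.

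In CD4+ T cells Socs1 was higher in cells with a Cish UMI. The Cish-only cells (62, 99, 70 and 85 per library) held Socs1 at 100 and 87.9 CPM without and 164 and 100 CPM with EVs. The Ifit3-only cells (31, 52, 38 and 52) held 21.8 and 25.9 CPM against 156 and 55.8 CPM, and cells with neither 26.1 and 25.7 CPM against 69.0 and 40.3 CPM. Cish-only cells thus lay above cells with neither in each library. Ifit3-only cells lay above them in both EV libraries, furthest in EV replicate 1, below them in Control replicate 1 and close to them in Control replicate 2. The Ifit3-only levels rest on 89 Socs1 UMIs in all. The log2 difference of Cish-only from neither was 1.45 ± 0.16 (edgeR adjusted p = 6.4e-07), where 10.8% of 8147 genes and 5 members including Cish itself were called, the others being Socs2 (3.75 ± 0.44), Socs3 (0.98 ± 0.23) and Socs5 (0.75 ± 0.23). Socs3 lost its call without EV replicate 1 (0.81, adjusted p = 0.11) and Socs5 without Control replicate 1 (0.69, 0.12), Control replicate 2 (0.60, 0.32) or EV replicate 2 (0.77, 0.10), and with DESeq2 neither was called (adjusted p = 0.51 and 0.065). That of Ifit3-only from neither was 0.69 ± 0.22 (adjusted p = 0.19), with 1.67% of genes called, and 0.23 without EV replicate 1. With Isg15 in place of Ifit3 it was 0.50 and called (adjusted p = 0.013).

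The direct comparison in CD4+ T cells put Socs1 lower in Ifit3-only than in Cish-only cells, by −0.76 ± 0.23 (edgeR adjusted p = 0.043), with 7.06% of 8147 genes called. The call was lost without Control replicate 1 (−0.57, adjusted p = 0.18), Control replicate 2 (−0.56, 0.28) or EV replicate 2 (−0.74, 0.14), and it was −1.34 without EV replicate 1. Treg markers moved with this split: their summed level was 1923 to 2370 CPM in Cish-only cells, 127 to 422 CPM in Ifit3-only cells and 199 to 291 CPM in cells with neither (4 genes). Their part in the difference was not tested. With Foxp3+ cells left out, an alternative added after the data were seen, Treg markers were still at 396 to 1119 CPM in Cish-only cells against 106 to 123 CPM in cells with neither. There Socs1 differed between Cish-only and neither by 1.30 (adjusted p = 0.00017), and between Ifit3-only and Cish-only by −0.61 (adjusted p = 0.26).

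Other genes of the lists moved with Cish in CD4+ T cells. Of 12 STAT5-induced genes 8 were higher in Cish-only cells than in cells with neither and 1 lower, with a median of 1.40 against −0.0058 over all genes. Those higher include Gzmb, a granule protease, by 4.53, Il2ra, the high-affinity interleukin-2 receptor chain and a Treg marker, by 3.91, and Tnfrsf4, a costimulatory receptor, by 3.13. Of 16 interferon-induced genes tested 1 was higher (median −0.20). Of 7 early response genes of dissociation tested 3 were higher too (Nr4a1 by 1.47, Dusp1 by 1.06 and Junb by 0.46), with the summed level of the list at 439 to 659 CPM in Cish-only cells against 329 to 497 CPM in cells with neither, and their part was not tested. In Ifit3-only cells the numbers were the reverse, with 15 of 16 interferon-induced and 0 of 12 STAT5-induced genes higher than in cells with neither (none of the latter lower), but Ifit3 is itself a member of the first list.

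In CD8+ T cells Socs1 was higher in both strata. Ifit3-only cells (90, 136, 91 and 145) held 37.3 and 36.2 CPM without and 119 and 74.8 CPM with EVs, against 30.3, 31.9, 66.9 and 46.9 CPM in cells with neither. They lay above in each library, by 0.59 ± 0.12 (edgeR adjusted p = 0.0024), where 1.63% of 11305 genes were called, and by 0.45 and not called without EV replicate 1 (adjusted p = 0.15). Cish-only cells held 72.8 and 53.7 CPM against 173 and 85.7 CPM, the highest of the 3 strata in each library. Treg markers moved with this split too, at 113 to 814 CPM in Cish-only cells against 74.0 to 98.1 CPM in cells with neither. The summed early response genes of dissociation were at 320 to 691 CPM against 248 to 360 CPM. The part of these markers in Socs1 was not tested. With 18 cells in Control replicate 1 the Cish-only cells missed the limit of 20. At a limit of 10, added after the data were seen, Cish-only cells differed from neither by 1.04 (adjusted p = 0.00025) and Ifit3-only from Cish-only by −0.45 (adjusted p = 0.20).

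Tregs held too few Ifit3-only cells (5 to 8 per library) for a fit. Their Cish-only cells had Socs1 at 112 and 80.7 CPM without and 234 and 166 CPM with EVs, and cells with neither 73.2 and 49.7 CPM against 91.1 and 70.9 CPM. Cish-only cells were above in each library. Their Treg markers were also higher, at 4265 to 4673 CPM against 2463 to 2882 CPM in cells with neither. Early response genes of dissociation were at 468 to 808 CPM against 369 to 669 CPM. The part of these markers was not tested.

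**Figure D4:**
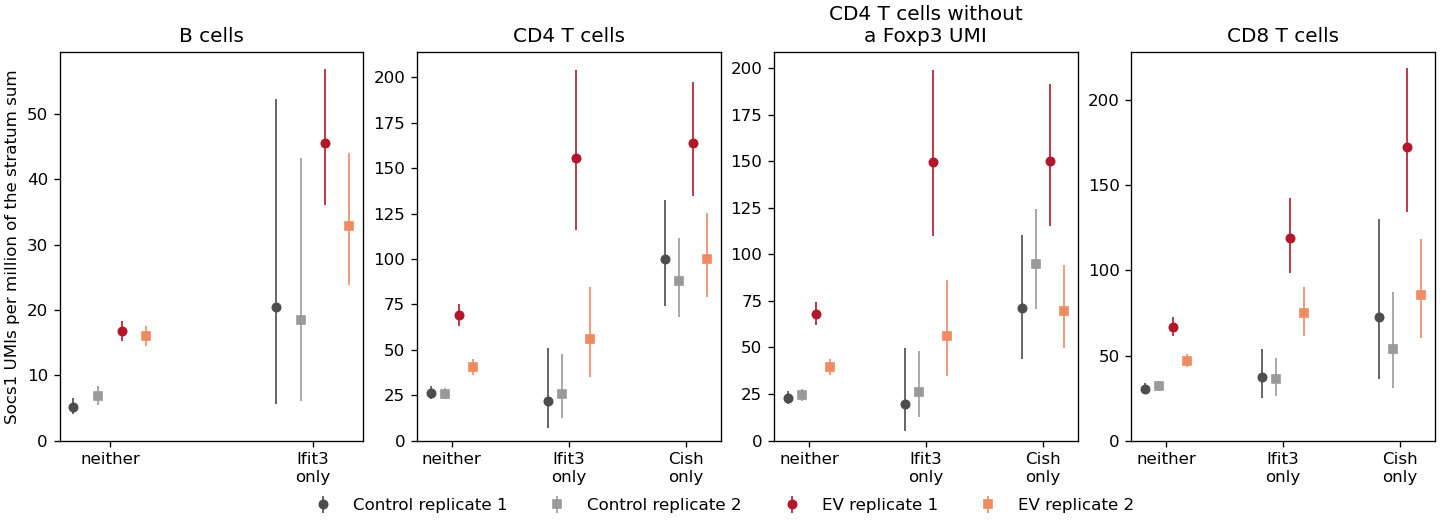
Socs1 level (CPM of the stratum sum, 95% exact Poisson intervals) in Ifit3-only cells, Cish-only cells and cells with neither, 1 point per library, in B cells, CD4+ T cells, CD4+ T cells without a Foxp3 UMI and CD8+ T cells. In B cells the Ifit3-only level exceeds that of neither in each library (the few Cish-only B cells are not plotted), and in the 3 T cell panels the Cish-only level does.

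An EV effect on Socs1 was also found in B, CD4+ and CD8+ cells without an Ifit3 or Cish UMI, an alternative added after the data were seen. Socs1 rose there by 1.49 in B cells (edgeR adjusted p = 0.0053), 1.08 in CD4+ T cells (adjusted p = 0.016) and 0.88 in CD8+ T cells (adjusted p = 0.010). In Tregs it was at 0.35 (adjusted p = 0.81), against 0.90 over all cells. Cells with neither made up most of the first 3 gates (14131 B cells, beside 526 Ifit3-only and 27 Cish-only, 4695 CD4+ and 5298 CD8+ T cells). Values near those over all cells were thus given in advance there. They cannot tell whether the effect goes with Ifit3 or Cish. In Tregs, 407 cells had neither, beside 193 Cish-only. A cell without an Ifit3 UMI may still express Ifit3, because a UMI was found in 1.66% to 10.4% of the cells (group means over the gates). The change of the Ifit3-only difference with EV treatment was −0.32 ± 0.58 in B cells, 1.03 ± 0.41 in CD4+ T cells and 0.52 ± 0.23 in CD8+ T cells. None was called (edgeR adjusted p = 0.97, 0.78 and 0.94), where 0.0751% of 11977, 0.0245% of 8147 and 0.0354% of 11305 genes were. At an unadjusted p under 0.05 there were 0, 2 and 2 members (edgeR), and DESeq2 called 0 of them.

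Across the 16 sums of 4 libraries by 4 gates, the genes whose log2 level ran most like that of each inducible member among 8175 genes were named as a description, since the sums share libraries and gates. For Socs1 they were Ywhab (Pearson r = 0.972), Zbp1 (0.966), an interferon-induced nucleic acid sensor, and Panx1 (0.960). For Cish they were Itm2b (0.986), Ikzf4 (0.985), a transcription factor of Tregs, and Rgs1 (0.984). Socs2 ran with Arrb1 (0.982), Xxylt1 (0.968) and Dst (0.957). Socs3 had the loosest neighbours, which were the interferon-induced genes Irgm1 (0.851), Isg15 (0.834) and Xaf1 (0.829).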

How the data were processed

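Draining lymph node cells of 2 Control and 2 EV samples were measured by 10x 3′ single-cell RNA sequencing. The authors deposited raw UMI counts per gene and barcode for each library, made with Cell Ranger 7.1.0 on mm10, not normalized, with barcodes as Cell Ranger called them and before the study's own cell filters. Cells with 200 to 5000 genes, at most 20000 UMIs and under 10% mitochondrial UMIs were kept. Gates required Cd79a without Cd3e (B cells), Cd3e and Cd4 without Cd8a and Cd79a (CD4+), Cd3e and Cd8a without Cd4 and Cd79a (CD8+), and Foxp3 with Cd3e (Tregs). Doublets were kept. Counts were summed per library and gate and tested with edgeR's two-sided quasi-likelihood test (TMM, filterByExpr, Benjamini-Hochberg over all genes tested), with library as a block for comparisons within libraries. CPM is UMIs per 1000000 UMIs of the sum. The scripts were tested on simulated data. All 8 members and Ifit3 were named, and of the lists only called genes or the largest change. The members and lists were chosen with earlier results of these data known. Alternatives were DESeq2, other cell filters, doublet removal (Scrublet), gates at 2 UMIs, no filterByExpr, other library sizes, thinning to 1000 UMIs, a replicate block, Isg15 in place of Ifit3 and each library left out. Fits used edgeR 4.0.16 and, as an alternative, DESeq2 1.42.0 in R 4.3.3, and cells were read in Python 3.11.15 with scanpy 1.11.5. The values of 1 gene of the lists are not reported here.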

Additional observations from a re-analysis of the deposited data

Results flagged for a closer look

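Socs3 stood apart in the test of a difference between cell types. The EV effect on its log2 level was larger in B cells than in CD4+ T cells by 2.03 ± 0.33 (edgeR interaction, adjusted p = 0.0048). It was 4.16 in B cells and 1.92 in CD4+ T cells, with EV replicate 1 at 76.0 and 107 CPM and EV replicate 2 at 7.72 and 21.0 CPM. Without EV replicate 1 the difference was 1.37 (adjusted p = 2.9e-05), without Control replicate 1 it was 1.72 (adjusted p = 0.083), and DESeq2 gave it no adjusted p. Mean Control levels of Socs3 were 2.44 CPM in B cells and 16.9 CPM in CD4+ T cells, and its rise in CPM was not larger in B cells. The myeloid markers, highest in EV replicate 1 in the B cell gate and in the T cell gates, are given with the Socs3 levels. Their part was not tested.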

How the results depend on the processing

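Groups of 2 libraries limit every test, and a fit with 1 library left in a group assumes that it varies like the others. Strata could not be fitted for cells thinned to 1000 UMIs or for at least 2 UMIs of Ifit3 or Cish, because too few cells were left. The libraries of both groups share a replicate number, and neither the labels nor the methods say that it pairs them. Deviations of same-numbered libraries correlated at −0.061 to 0.078 across gates, which cannot tell whether they were processed together. With a replicate block the members called in EV against Control were 2 in B cells, 2 in CD4+ T cells, 5 in CD8+ T cells and 2 in Tregs, in place of 1, 1, 2 and 0. The share of all genes called is not given beside this and the following counts. They show how the calls depend on the processing and are no result on the members. Without filterByExpr they were 2, 2, 4 and 2, and the CD8+ less CD4+ T cell effect had 1 call. Thinned cells gave 2 in B cells, 0 in CD4+ T cells and, for CD8+ against CD4+ T cells, 1 in place of 4. DESeq2 gave 0 in CD4+ T cells, and gave no adjusted p to 1 member in CD8+ T cells, 8 in Tregs and 7 for the B cell less CD4+ T cell effect, so that it gave no count there. For CD8+ T cells there was 1 with a changed cell filter (no upper limits on genes and UMIs together with a mitochondrial limit of 5%) and 1 in cells with neither Ifit3 nor Cish. With single libraries left out the counts ran from 1 to 2 (B cells), 1 to 2 (CD4+), 2 to 5 (CD8+) and 0 to 2 (Tregs), from 0 to 2 for the B cell less CD4+ effect and from 0 to 1 for the CD8+ less CD4+ effect.

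Ifit3-only against neither in CD4+ T cells passed with Isg15 in its place (0.50), and its EV effect then turned to −0.036. Ifit3-only against Cish-only in CD4+ T cells was −0.63 with the changed cell filter, −0.61 without Foxp3 cells and −1.34 to −0.56 with libraries left out, and Ifit3-only against neither in CD8+ T cells 0.45 to 0.68. Thinning turned the difference in the share of Cish cells to −0.078 percentage points in CD4+ T cells and −1.60 in Tregs. The direction of uncalled changes turned for Socs2, Cish, Socs1 and Socs3. Socs2 (EV) in B cells was 0.32 with the changed cell filter and −0.73 to 0.72 with libraries left out (positive without Control replicate 1 or EV replicate 1, at 0.20). In CD4+ T cells it ran from −0.75 to 0.16 (positive without Control replicate 1) and in Tregs from −0.56 to 0.65 (positive without either of these, at 0.10 for the latter), and was 0.014 in Tregs with neither gene. Cish (EV) in CD4+ T cells was −0.091 thinned and −0.012 to 0.53 with libraries left out (negative without Control replicate 1), and in Tregs −0.35 thinned. For CD8+ less CD4+ T cells, Socs1 was 0.025 with gates at 2 UMIs and −0.19 to 0.073 with libraries left out, and Socs3 −0.32 to 0.12 (both positive without EV replicate 1). For Tregs less CD4+ T cells without Foxp3, Socs1 was −0.65 to 0.25 (positive without Control replicate 1). The causes were not tested. The other 206 values answering a comparison were scored as unchanged. For counts of members called this means a count equal or close to the main one, even where single calls were lost. For shares of cells it means the same direction only, and for Socs1 between strata the same direction and side of the threshold. Of the values of single genes, 460 kept direction and side of the threshold, 29 passed the threshold newly and 37 lost it.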
